A study of Lachancea kluyveri with 16 samples.

Results

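HSP26, SPS100 and SPG4 of the budding yeast Lachancea kluyveri are genes whose counterparts in Saccharomyces cerevisiae serve stress resistance, sporulation and survival in stationary phase. They were followed on 16 one-colour Agilent arrays through the probes of SAKL0D02794g (HSP26), SAKL0E12298g (SPS100) and SAKL0E03696g (SPG4). These 3 loci, with 6 probes in all, are 3 of the 5316 genes and 6 of the 10620 gene probes on the arrays. They were chosen on their differences between strains or media on these same arrays, so their levels and changes are a description, with standard errors and with no test.

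HSP26 encodes a small heat shock protein, which in S. cerevisiae binds unfolding proteins and holds them until other chaperones such as Hsp104 and the Hsp70 proteins can refold them. It is hardly made in unstressed S. cerevisiae cells growing on glucose and is switched on by heat, by glucose exhaustion and on entry into stationary phase, through the heat shock factor Hsf1 and the general stress factors Msn2 and Msn4. SPS100 of S. cerevisiae is a sporulation gene needed for maturation of the spore wall. The study's ortholog table pairs the L. kluyveri locus with both SPS100 and YGP1, a related gene for a secreted glycoprotein made when nutrients run out. SPG4 takes its name from stationary phase, in which S. cerevisiae cells need it to survive at high temperature.

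The arrays compared a wild-type strain (WT, JYL1897, MATa ura3) with SkSef1KA1, a deletion strain made from it that carries KanMX6 in place of SEF1 (sef1Δ) and the same ura3 mutation. SEF1 encodes a zinc cluster transcription factor. The deletion was studied in this 1 strain. Both strains were grown overnight in YPD, a rich glucose medium, at 28 °C. They were then brought to 0.2 OD600 per ml in fresh YPD or in YPGly, where glycerol replaces glucose, and kept for 5.5 h at 30 °C. Each of the 4 groups, WT in YPD, WT in YPGly, sef1Δ in YPD and sef1Δ in YPGly, held 4 biological repeats. The study describes a mild growth defect of the mutant in YPGly.

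The array's 75th percentile of processed signal ran from 718 to 2410, between 90.5% and 98.7% of gene probes were well above background, and no gene probe was saturated. SEF1 itself read 194 to 800 on the 8 WT arrays. In sef1Δ 1 of its probes, the one used for these values, failed the background test on 7 of 8 arrays (2.04 to 4.06), while replicate 3 in YPGly read 40.3. The second SEF1 probe failed it on all 8 (1.95 to 3.75, against 241 to 1037 in WT). Each replicate number filled 1 row of 1 of the 2 slides, and each group filled 1 column of both slides, so that column and group cannot be told apart. Replicate 2 of sef1Δ in YPGly stood apart from the other 3 arrays of its group by Dixon's test at 190 genes on the high side and 268 on the low side, against 3 to 75 genes on either side for the other 15 arrays.

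Levels are given on the log2 scale relative to the 75th percentile of the array, so that 0 is the level of a fairly bright gene on that array and negative values are dimmer. They compare arrays for 1 gene and do not rank genes against each other. All 3 loci were among the 4255 genes tested, those whose signal reached 200 throughout some group of 4 arrays, and all 3 entered only through the YPGly groups. In YPD the chosen probe of HSP26 reached 200 on 1 of 4 WT and 2 of 4 sef1Δ arrays, that of SPS100 on 1 and 3, and that of SPG4 on none. Both probes of each gene followed each other, with differences on any array of at most 0.56 for HSP26, 0.66 for SPS100 and 0.97 for SPG4.

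On glycerol HSP26 was far higher in the mutant than in WT. In WT in YPGly its level was -1.27, -0.39, -1.34 and -1.61 on replicates 1 to 4, or 0.327 to 0.765 times the 75th percentile. In sef1Δ in YPGly it was 2.52, 1.12, 3.34 and 2.74, or 2.17 to 10.1 times the 75th percentile. All 4 mutant arrays lay above all 4 WT arrays. The mean was -1.15 ± 0.53 (SD, n = 4) for WT and 2.43 ± 0.94 (SD, n = 4) for the mutant, a log2 difference of 3.58 (SE 0.44). This is 11.96-fold and ranks 1 among the 4255 genes in this comparison. The second probe gave 3.64. The difference was positive in each of the 4 same-numbered pairs of cultures (3.79, 1.51, 4.67 and 4.36), with replicate 2 the smallest. It was 2.65 among the arrays of slide 1, which holds replicates 1 and 2, and 4.51 among those of slide 2. Without sef1Δ replicate 2 it was 4.02 (SE 0.31), and without sef1Δ replicate 3, the array with the SEF1 reading, 3.28 (SE 0.43).

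**Figure D1:**
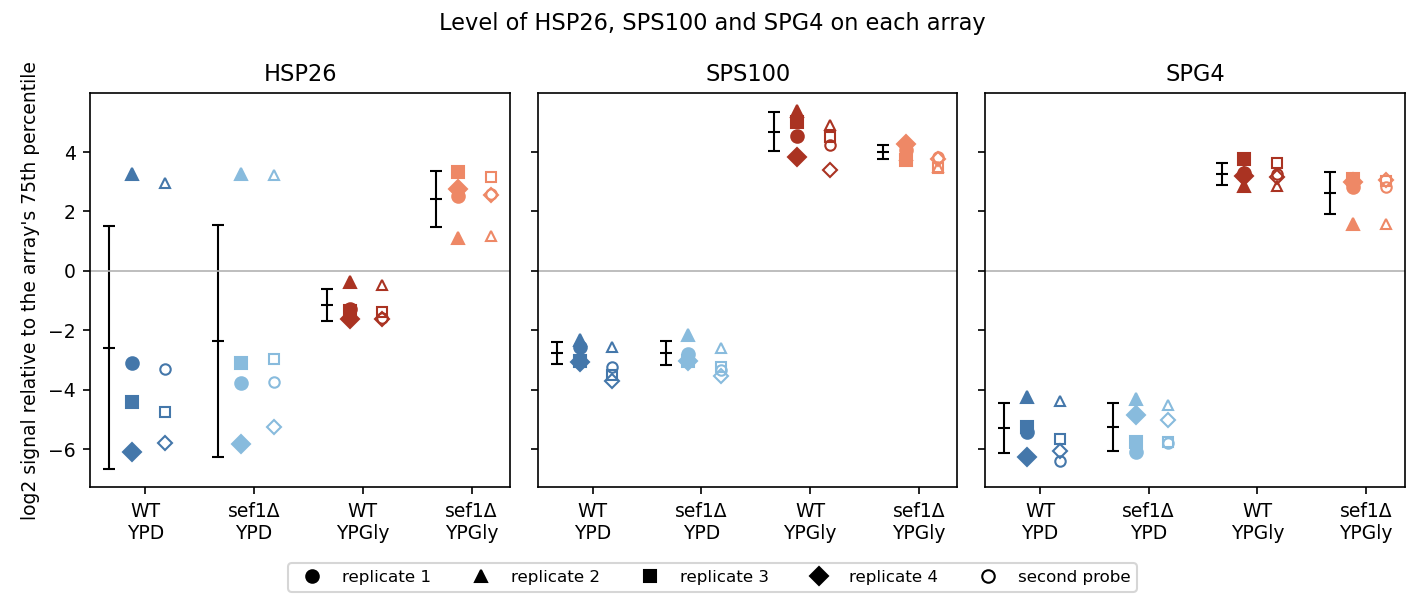
Level of HSP26, SPS100 and SPG4 on each of the 16 arrays, as log2 of the signal relative to the array's 75th percentile; filled symbols are the chosen probe, open symbols the second probe, symbol shapes the replicate numbers, and black bars the mean ± SD of the chosen probe (n = 4). SPS100 and SPG4 separate by medium, while HSP26 in YPD spans from -6.11 to 3.28 and is high on replicate 2 of both strains.

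On glucose HSP26 varied more between cultures than between strains. In WT in YPD its level was -3.09, 3.28, -4.41 and -6.11 on replicates 1 to 4, and in sef1Δ in YPD -3.78, 3.25, -3.11 and -5.82. Replicate 2 was high in both strains, at 9.69 and 9.52 times the 75th percentile, and replicate 4 was lowest in both. The next highest YPD array lay 6.37 log2 units below replicate 2 in WT and 6.36 below it in sef1Δ. On WT replicate 4 neither HSP26 probe was well above background. The mean was -2.58 ± 4.10 (SD, n = 4) for WT and -2.36 ± 3.92 (SD, n = 4) for the mutant. These SDs rank 1 of 4255 genes in either strain, where the median gene had an SD of 0.23 in WT and 0.26 in sef1Δ. The strain difference in YPD was 0.22 (SE 2.20), with overlapping groups. Pair by pair it was -0.68, -0.03, 1.298 and 0.29, with an SD over same-numbered pairs of 0.83. The highest and lowest levels thus fell on the same replicate numbers in both strains, while replicates 1 and 3 changed order.

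**Figure D2:**
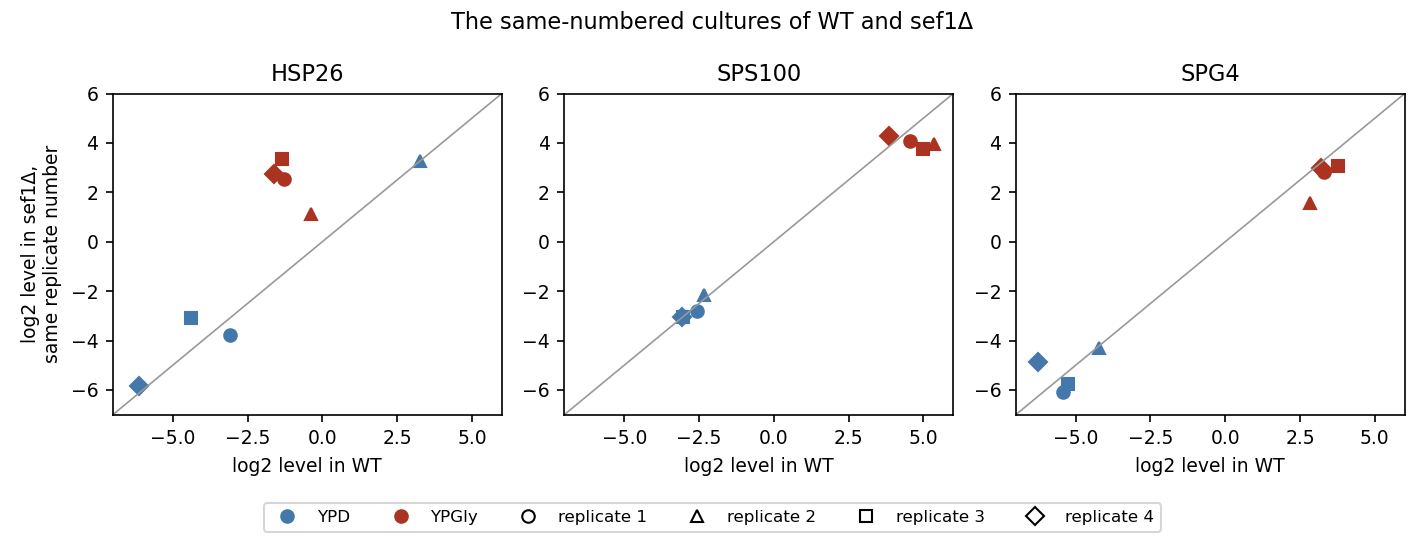
Level of each gene in sef1Δ (vertical axis) against WT (horizontal axis) for cultures of the same replicate number, both as log2 relative to the array's 75th percentile; blue is YPD, red is YPGly, shapes are replicate numbers, and the grey line marks equal levels. The 4 YPD pairs of HSP26 lie along the line from low to high, and its 4 YPGly pairs lie above it by 1.51 to 4.67.

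Replicate 2 in YPD was high for much of the heat shock machinery. Of the 19 other tested genes in a list of heat shock proteins and chaperones, 15 were at their highest on replicate 2 among the YPD arrays of both strains, where 12.1% of all genes were. HSP104, the disaggregase that works with small heat shock proteins, read -0.04, 3.64, 0.42 and -0.99 in WT in YPD and 0.31, 3.63, 0.83 and -0.90 in sef1Δ. SSA4, a stress-inducible Hsp70, read 2.01, 4.46, 2.67 and 0.19 in WT and 2.21, 4.51, 2.67 and 0.46 in sef1Δ. For both genes replicate 2 was highest and replicate 4 lowest in either strain, the order seen for HSP26 at these ends.

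HSP42, the other small heat shock protein of the list, read 0.46, 2.82, 0.74 and 0.45 in WT in YPD and 0.54, 2.91, 1.096 and 1.02 in sef1Δ. Replicate 2 thus stood 2.08 and 1.81 above the next array. The J-domain co-chaperones SIS1 and APJ1 and the mitochondrial disaggregase HSP78 were likewise highest on replicate 2, by 1.74 to 3.27 log2 units over the next YPD array. Stress genes outside that list were mixed on these arrays. CTT1, the cytosolic catalase gene, read 1.94, 2.73, 2.73 and 1.73 in WT in YPD and 1.61, 2.78, 2.60 and 2.45 in sef1Δ. Of 11 trehalose and glycogen genes 6 were highest on replicate 2 in WT, where 26.3% of all genes were. In sef1Δ 1 was highest on replicate 2 (21.4% of all genes) and 10 on replicate 4 (26.3% of all genes). TPS2, the trehalose phosphate phosphatase, read 1.00 to 1.52 on the 8 YPD arrays, and MSN2 -2.67 to -2.26. Within the heat shock and chaperone list not all genes were highest on replicate 2. HSP12, a small membrane-associated stress protein driven by Msn2 and Msn4 in S. cerevisiae, read 3.88 to 4.37 on the 8 YPD arrays. It was highest on replicate 1 in both strains. For SSB1 and CNS1 replicate 2 lay below the highest other YPD array in both strains, and for ECM10 in WT.

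Over the 19 genes, the median deviation from each gene's mean over the 8 arrays of a medium was 0.83 on WT replicate 2 in YPD and 1.06 on sef1Δ replicate 2, and from -0.80 to 0.15 on the other 6 YPD arrays. On the 8 YPGly arrays it ran from -0.31 to 0.46. Ribosomal protein genes, a sign of growth, made up 13.99% of the summed signal on WT replicate 2, where the other WT YPD arrays had 15.3% to 16.5%, and 15.99% on sef1Δ replicate 2, within the 13.7% to 18.9% of its group. The slide row of an array and its replicate number cannot be told apart.

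**Figure D3:**
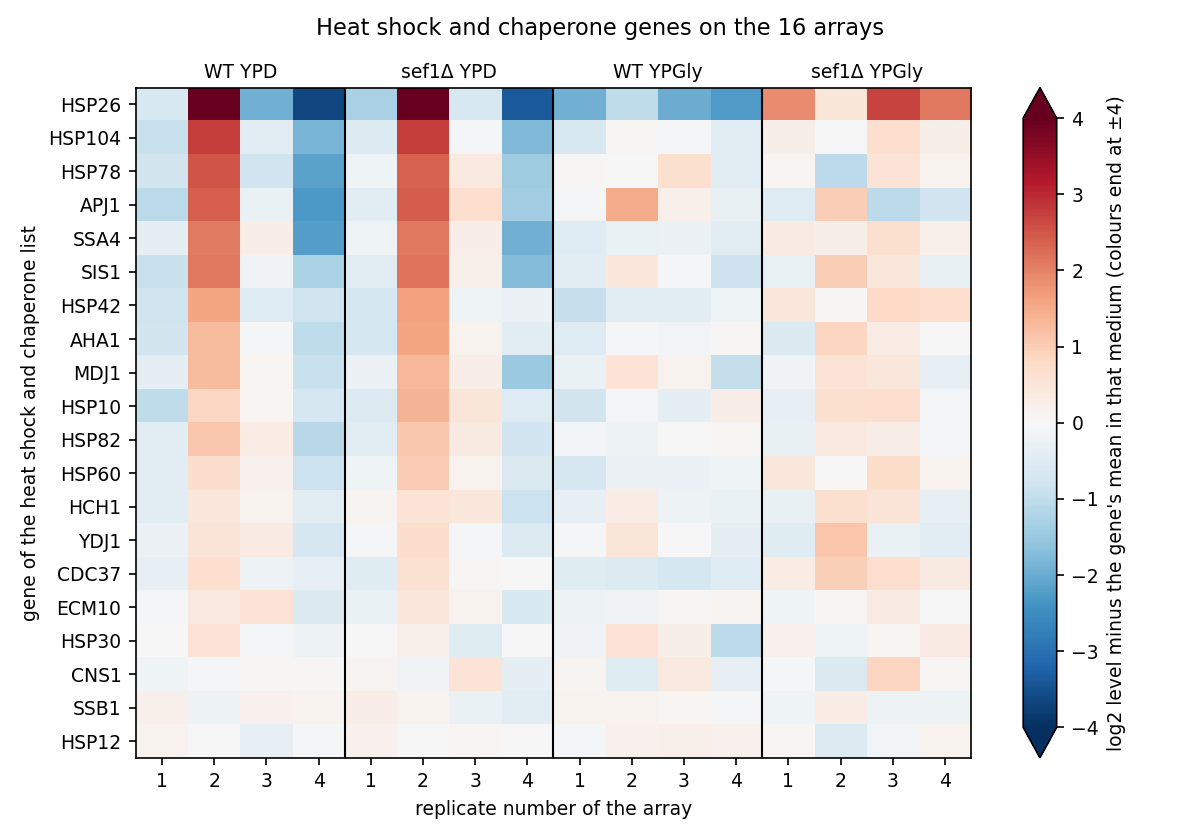
Level of HSP26 and 19 other heat shock and chaperone genes on each array, as log2 minus the gene's mean over the 8 arrays of that medium; columns are arrays by group and replicate number, and colours end at ±4. Replicate 2 is red in both strains in YPD for most genes above HSP12 and SSB1, and in YPGly the row of HSP26 splits by strain.

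**Figure D4:**
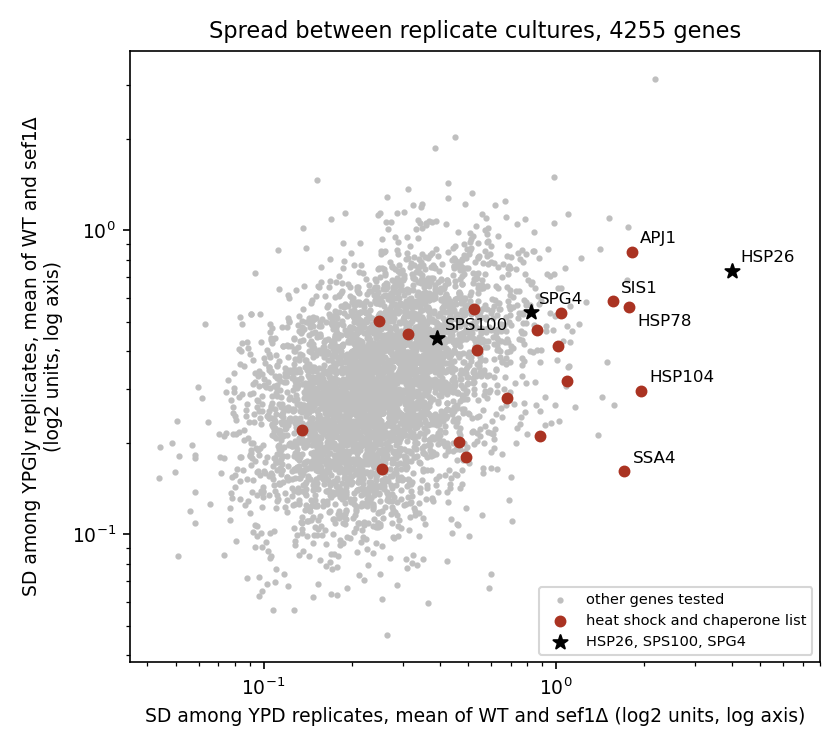
SD between the 4 replicate cultures for each of the 4255 genes, in YPD (horizontal) against YPGly (vertical), each the mean of the WT and the sef1Δ SD on log axes in log2 units; red points are heat shock and chaperone genes and stars the 3 genes described here. HSP26 lies farthest to the right, followed by other genes of which HSP104, APJ1, HSP78, SSA4 and SIS1 are labelled.

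The comparison of media for HSP26 rested on that array. With all arrays its level was higher in YPGly by 1.43 (SE 1.57) in WT and by 4.79 (SE 1.56) in sef1Δ, and in both strains the groups overlapped, since YPD replicate 2 lay above all 4 YPGly arrays in WT and above 3 of 4 in sef1Δ. Left out of YPD after the data had been seen, replicate 2 gave way to differences of 3.39 (SE 0.60) in WT and 6.67 (SE 0.68) in sef1Δ. Within slides the WT difference was -0.92 on slide 1, which holds replicate 2, and 3.78 on slide 2, and the sef1Δ difference 2.08 and 7.503. The sef1Δ effect on HSP26 was larger in YPGly than in YPD by 3.36 (SE 2.49), the top rank of 4255. Without the YPD replicate 2 arrays this difference was 3.28 (SE 1.01), and with cultures paired by replicate number within each medium, also after the data had been seen, it was 3.36 (SE 0.61). In the order of group means HSP26 was highest in sef1Δ in YPGly, then WT in YPGly, and the 2 YPD groups last, with YPD arrays that ran from -6.11 to 3.28 and overlapped both YPGly groups.

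SPS100 followed the medium. In WT in YPD it read -2.57, -2.34, -3.05 and -3.08, and in sef1Δ in YPD -2.80, -2.16, -3.04 and -3.05. In YPGly it read 4.55, 5.37, 4.99 and 3.85 in WT and 4.06, 3.94, 3.73 and 4.28 in sef1Δ. Every YPGly array lay more than 5 log2 units above every YPD array, and the strains overlapped in both media. Means rose from -2.76 ± 0.37 (SD, n = 4) to 4.69 ± 0.65 (SD, n = 4) in WT, a difference of 7.45 (SE 0.31, 174-fold), and from -2.77 ± 0.42 (SD, n = 4) to 4.00 ± 0.23 (SD, n = 4) in sef1Δ, a difference of 6.77 (SE 0.23, 109-fold). The strain difference was -0.01 (SE 0.24) in YPD and -0.69 (SE 0.30) in YPGly, where the mutant was lower in 3 of 4 same-numbered pairs, and the difference between these was -0.68 (SE 0.41). Its highest array in YPD was replicate 2 in both strains.

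SPG4 also followed the medium. It read -5.42, -4.24, -5.27 and -6.26 in WT in YPD and -6.09, -4.32, -5.76 and -4.87 in sef1Δ in YPD, signals of 14.2 to 102 that lie close to background. WT replicate 4 was not well above background at this probe. In YPGly it read 3.29, 2.85, 3.76 and 3.18 in WT and 2.81, 1.58, 3.08 and 2.99 in sef1Δ, with overlapping strains and no overlap between media. The means were -5.30 ± 0.83 (SD, n = 4) and 3.27 ± 0.38 (SD, n = 4) in WT, a difference of 8.56 (SE 0.37, 379-fold), and -5.26 ± 0.81 (SD, n = 4) and 2.62 ± 0.70 (SD, n = 4) in sef1Δ, a difference of 7.88 (SE 0.43, 235-fold). Among the 4255 genes these rank 8 and 9 from the top, where those of SPS100 rank 13 and 18. The SPG4 difference starts from YPD signals close to background. There its chosen probe was well above background on 3 of 4 WT and 4 of 4 sef1Δ arrays. For the second probe this held on 2 of 4 WT and 4 of 4 sef1Δ arrays. Whether the background limits the size of the difference was not tested. With normexp background correction the differences were 6.90 in WT and 6.52 in sef1Δ for SPG4, and 6.85 and 6.40 for SPS100. This correction adds an offset of 50, which by itself shrinks changes from dim signals. The strain difference was 0.04 (SE 0.47) in YPD and -0.65 (SE 0.34) in YPGly, where the mutant was lower in all 4 pairs, and the difference between these was -0.69 (SE 0.62). Replicate 2 was the highest YPD array of SPG4 as well, in both strains.

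**Figure D5:**
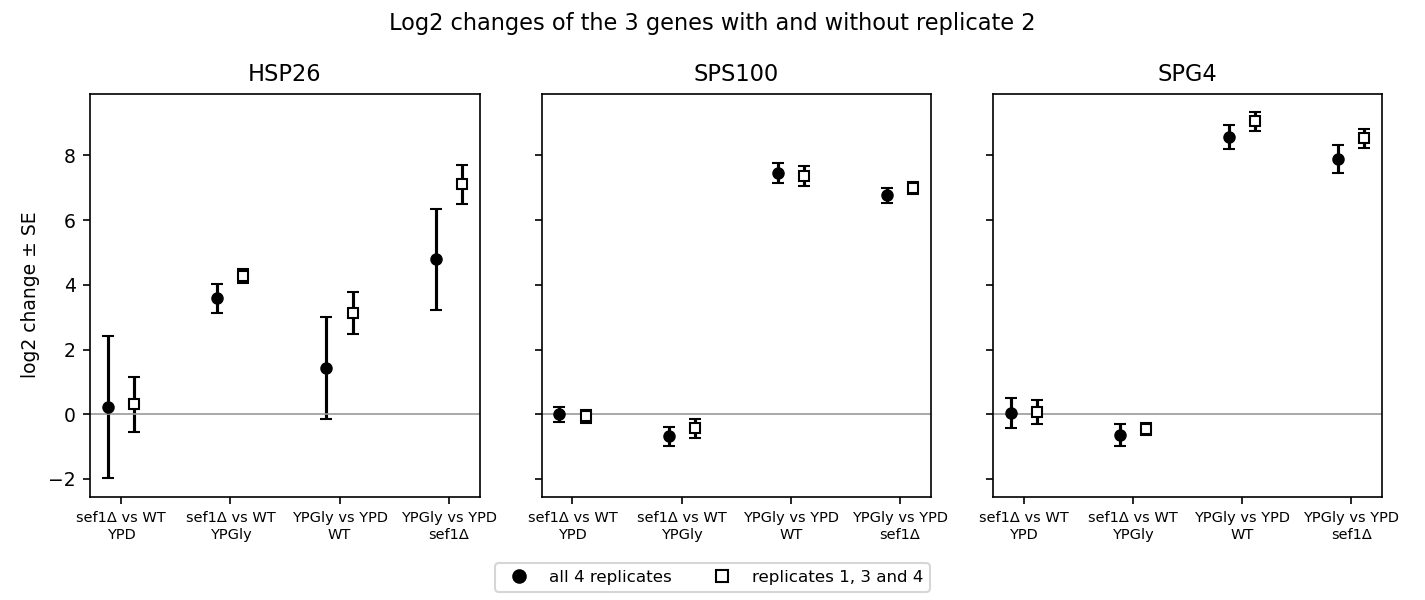
Log2 changes of the 3 genes in the 4 comparisons, with bars of ± SE; filled circles use all 4 replicates of each group and open squares leave out replicate 2 throughout. HSP26 changes in YPGly between strains by 3.58 and 4.27 in these fits and its medium changes grow without replicate 2, while SPS100 and SPG4 keep medium changes between 6.77 and 9.06.

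A gene was called in a comparison when its limma p, adjusted over all 4255 genes by the Benjamini-Hochberg method, was at most 0.05 and its change reached 1.5-fold. None of the 3 genes was called between strains in YPD, where 0.0705% of all genes were, and HSP26 alone was called higher in sef1Δ in YPGly, where 0.729% of all genes were. In a fit that took 1 spread per gene from all 16 arrays, wide YPD groups included, HSP26 lost that call (SE 1.76 in place of 0.44). Between media SPS100 and SPG4 were called higher in YPGly in WT, where 17.5% of all genes were, and all 3 genes in sef1Δ, where 18.1% of all genes were. Of the 8 fits that leave out 1 array, HSP26 held its call between media in sef1Δ in 2, those without replicate 2 of either medium, and in WT it was called only in that without YPD replicate 2. With all arrays kept, the WT change of HSP26 ran from 0.54 to 2.10 over the other scalings and normexp. It was highest with spike-in scaling, where HSP26 was called. None of the 3 was called for the difference of the sef1Δ effect between media, where 0.658% of all genes were. As the genes were chosen with these comparisons in view, nothing is read from the counts or from calls kept or lost. By groups that did not overlap, none of the 3 separated the strains in YPD (1.9% of all genes), 1 of 3 separated the strains in YPGly (9.54% of all genes), 2 of 3 the media in WT (45.2%) and 2 of 3 in sef1Δ (42% of all genes).

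Stress-related genes other than these 3 were taken from 5 lists with 90 genes, of which 76 others were tested. Between strains in YPD none was called, 1 had an unadjusted p under 0.05 (113 of all 4255 genes did), and the methods' t-test called none. In YPGly 2 were called higher in sef1Δ and none lower (2.63% higher, against 0.729% of all genes higher and 0.494% lower), and 14 had an unadjusted p under 0.05, as had 523 of all 4255 genes. CDC37, a co-chaperone that hands kinases to Hsp90, was at 0.68 ± 0.09 (SD, n = 4) in WT and 1.82 ± 0.31 in sef1Δ, a rise of 1.14 (SE 0.18, adjusted p 0.0155). MOH1, whose S. cerevisiae counterpart is needed for survival in stationary phase, rose by 0.85 (SE 0.16, adjusted p 0.0352) from -0.03 ± 0.22 to 0.82 ± 0.11. Neither was called when WT replicate 1, 2 or 3 or sef1Δ replicate 3 was left out, nor with spike-in scaling (adjusted p 0.102 for CDC37 and 0.217 for MOH1). With same-numbered cultures paired, 5 stress genes were called, CDC37, MOH1, HSP42, SSA4 and the sporulation kinase gene SPS1, and 224 of all genes where the unpaired fit called 52. Without pairing HSP42 differed by 0.97 (SE 0.22, adjusted p 0.0764), and HSP104 by 0.58 (SE 0.21, adjusted p 0.27). The median over the 19 heat shock and chaperone genes was 0.26, with 14 above 0, and over all genes 0.03. For the difference of the sef1Δ effect between media none of the 76 was called and 7 had an unadjusted p under 0.05, as had 407 of all 4255 genes.

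Between media the stress genes went both ways. In WT 24 rose and 11 fell in YPGly and in sef1Δ 24 rose and 7 fell, where of all genes 746 rose and 1036 fell in WT (17.5% and 24.3%) and 770 rose and 953 fell in sef1Δ (18.1% and 22.4%). Scaled by the spike-in spots, after which the median change over all genes was 0.53 for WT (previously -0.14) and 0.185 for the mutant (previously -0.11), these became 44 and 2 of the stress genes and 1474 and 180 of all genes in WT, and 29 and 4, and 1001 and 467, in sef1Δ. No stress gene called in any comparison changed sign under any scaling, but most WT falls lost their call with spike-in scaling. Of the 11 stress genes that fell in WT, only SNZ1 (-1.76) and SWM1 (-0.996) kept it. The WT change of HOG1 went from -0.72 to -0.05 and that of SPR1 from -0.85 to -0.18. For HSP60 it went from -0.90 to -0.23. In sef1Δ the falls of SNZ1, SWM1, SSB1 and TRR2 stayed called.

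The stationary phase and spore wall list, to which SPS100 and SPG4 belong, had 5 genes that rose and 3 that fell in WT and 6 and 2 in sef1Δ, of 13 others tested. SPG1, named like SPG4 for stationary phase survival, rose by 4.13 (SE 0.24, adjusted p 5.09e-07) in WT and 4.14 (SE 0.61, adjusted p 0.00044) in sef1Δ. MOH1 rose by 3.73 (SE 0.19) and 4.43 (SE 0.35). SNZ1, a vitamin B6 synthesis gene induced in stationary S. cerevisiae cells, fell instead, with log2 changes of -2.43 (SE 0.23, adjusted p 2.63e-05) in WT and -1.48 (SE 0.29, adjusted p 0.0025) in sef1Δ. SWM1, an anaphase-promoting complex subunit needed for spore wall maturation, fell too (-1.67, SE 0.19, and -2.04, SE 0.17, in WT and sef1Δ).

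Of the 19 heat shock and chaperone genes beside HSP26, 2 rose and 4 fell in WT and 5 rose and 3 fell in sef1Δ. HSP30, a plasma membrane stress protein, rose by 6.14 (SE 0.32, adjusted p 2.71e-07) in WT and 6.48 (SE 0.19, adjusted p 1.5e-08) in sef1Δ. HSP12 rose from 4.14 ± 0.20 to 5.70 ± 0.13 (SD, n = 4) in WT, by 1.56 (SE 0.16, adjusted p 3.22e-05), and by 1.21 (SE 0.18) in sef1Δ. SSB1, the Hsp70 that works on the ribosome, fell, with changes of -1.41 (SE 0.15) in WT and -1.399 (SE 0.20) in sef1Δ. HCH1, a helper of Hsp90, fell in both strains (-1.09, SE 0.24, and -0.96, SE 0.34), and so did the co-chaperone YDJ1 (-1.04, SE 0.28, and -1.099, SE 0.37). With spike-in scaling SSB1, HCH1 and YDJ1 were not called in WT (-0.74, -0.42 and -0.37). In sef1Δ SSB1 was still called with it (-1.10), and HCH1 (-0.66) and YDJ1 (-0.80) were not. SSA4 rose by 1.82 (SE 0.66, adjusted p 0.046) in sef1Δ and differed by 1.24 (SE 0.68, adjusted p 0.157) in WT. HSP42 differed by 0.53 (SE 0.47, adjusted p 0.369) in WT and rose by 1.24 (SE 0.44, adjusted p 0.0435) in sef1Δ, and HSP104 differed by 0.35 (SE 0.78, adjusted p 0.735) and 0.72 (SE 0.76, adjusted p 0.458). Without the YPD replicate 2 arrays 8 of the list rose and 3 fell in WT, with HSP104, HSP42, SSA4, HSP78, APJ1 and CDC37 added to the risers, and 6 rose and 1 fell in sef1Δ. Of all genes 753 then rose and 1067 fell in WT, and 710 rose and 876 fell in sef1Δ. These arrays were left out after the list had been seen to be high on them.

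In oxidative stress defence 8 of 17 rose and 2 fell in WT, and 6 rose and 2 fell in sef1Δ. The peroxisomal catalase gene CTA1 rose by 4.11 (SE 0.30) in WT and 3.35 (SE 0.30) in sef1Δ, and the cytosolic catalase gene CTT1 from 2.28 ± 0.52 to 4.37 ± 0.25 (SD, n = 4) in WT, by 2.09 (SE 0.25, adjusted p 0.000109), and by 1.73 (SE 0.25) in sef1Δ. The mitochondrial peroxiredoxin gene PRX1 (SAKL0F12320g) rose by 2.97 (SE 0.19) and 2.98 (SE 0.24), while TSA2 (-1.301, SE 0.24, and -1.08, SE 0.35) and TRR2 (-1.23, SE 0.26, and -1.29, SE 0.25) fell. With spike-in scaling TSA2 (-0.63) and TRR2 (-0.56) were not called in WT. In sef1Δ TRR2 was still called with it (-0.99), and TSA2 was not (-0.78). Of 11 trehalose and glycogen genes 5 rose and none fell in each strain, led by the glycogen regulator GAC1 (1.72, SE 0.23, and 1.93, SE 0.39) and the vacuolar trehalase ATH1 (1.40, SE 0.15, and 2.20, SE 0.16), whereas TPS2 differed by 0.15 (SE 0.18) and 0.07 (SE 0.21). Among 16 regulators 4 rose and 2 fell in WT and 2 rose in sef1Δ. XBP1, a stress-induced repressor, rose by 4.10 (SE 0.26) and 4.85 (SE 0.37), and ADR1, an activator of genes for growth without glucose, by 3.00 (SE 0.20) and 3.28 (SE 0.45). TPK3, a catalytic subunit of protein kinase A, fell in WT (-0.92, adjusted p 0.00685) and was at -0.62 (adjusted p 0.122) in sef1Δ. The osmotic stress kinase HOG1 fell in WT (-0.72, adjusted p 0.00197), and in sef1Δ its change of -0.52 (adjusted p 0.0213) did not reach 1.5-fold. Neither TPK3 (-0.25) nor HOG1 (-0.05) was called in WT with spike-in scaling. MSN2 differed by 0.26 in both strains (SE 0.18 and 0.19). The 73 ribosomal protein genes all fell in YPGly in both strains, with medians of -1.35 in WT and -1.74 in sef1Δ. With spike-in scaling only 18 were called lower in WT (median -0.68), but all 73 in sef1Δ (median -1.44).

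The genes whose pattern was most like each of the 3 were found by the root mean square (RMS) difference of mean-centred log2 levels over the 16 arrays, among 4239 genes with a value on every array. SPS100 and SPG4 were close to each other, at 0.81, and both far from HSP26, at 3.39 and 3.65. Nearest to SPS100, whose own RMS about its mean was 3.58, were HSP30 at 0.54, PXA1 at 0.65 and ENA2 at 0.70, followed by SAKL0H07018g at 0.75 and SAKL0E05258g at 0.76. Nearest to SPG4, with an RMS of 4.16, were PXA1, a peroxisomal fatty acid transporter subunit, at 0.67, the acetyl-CoA synthetase gene ACS1 at 0.72, the carboxylate transporter gene JEN1 (SAKL0F02178g) and the thiolase gene POT1, both at 0.79, and the sodium pump gene ENA2 at 0.92. The likeness of these pairs is over 16 arrays that share the split by medium.

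HSP26 had no such close match. Its nearest genes were SSA4 at 2.05, HSP104 at 2.14, the acid phosphatase gene PHO11 at 2.24, FET2 at 2.26 and HSP78 at 2.31, against its own RMS of 3.21. Of these SSA4 was higher in sef1Δ than in WT in YPGly by 0.71 (SE 0.16, adjusted p 0.0764, limma). It was not called there, but was called with same-numbered cultures paired. The same difference was 1.72 for FET2, 0.79 for PHO11, 0.58 for HSP104 and -0.13 for HSP78.

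The 2 arrayed genes on either side of each locus, by systematic number, had patterns of their own. Beside SPS100, the ammonium permease gene MEP2 fell in YPGly (-3.68, SE 0.46, adjusted p 0.000133, in WT and -2.78, SE 0.26, adjusted p 2.64e-05, in sef1Δ), and YHR140W and SAKL0E12342g were not called in any comparison. Beside SPG4, YKU80, a subunit of the DNA end-binding Ku complex, rose in sef1Δ against WT in YPGly by 0.89 (SE 0.17, adjusted p 0.0326) and in YPGly against YPD by 1.12 (SE 0.18) in WT and 2.47 (SE 0.18) in sef1Δ, with a larger sef1Δ effect in YPGly by 1.35 (SE 0.24, adjusted p 0.013). PGM2, on the same side, rose in WT in YPGly by 0.78 (SE 0.21), PMU1 fell (-0.90, SE 0.15, in WT and -0.61, SE 0.22, in sef1Δ), and ILV2 was not called. Beside HSP26, VMS1 rose in WT in YPGly by 0.76 (SE 0.19, adjusted p 0.00685), while SAKL0D02816g and ALG14 were not called. RDH54 beside HSP26 and GAT1 beside SPS100 were too dim to test.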

How the data were processed

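The authors scanned one-colour arrays with Agilent Feature Extraction 10.5.1.1 and deposited, for each of 16 arrays, background-corrected processed signal as linear intensity, with flags for background and saturation. The deposited value table holds log2 values, which equal log2 of the processed signal minus the array's 75th percentile up to an array constant (SD of the difference at most 3.73e-07, array medians 0.00235 to 0.00787). Per the study's methods the authors used 75th percentile scaling, the brighter of 2 probes per gene and an unpaired t-test. Per the same methods, probes were designed on transcript sequences of strain CBS3028 from the former Genolevures database. No coordinates were used.

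Here, in R 4.3.3, control spots (536 per array) and 32 outlier spots were left out, log2 processed signal was scaled to the 75th percentile of gene probes, and the probe with the higher mean stood for a gene. The 4255 genes whose signal reached 200 throughout some group were fitted with limma 3.58.1, unpaired and without blocks. Each comparison used 8 arrays, and the difference of the sef1Δ effect used 16. The fit was tested on simulated data.

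The 3 genes, the lists and the rule for named genes were chosen with earlier results of these data known. Named are HSP42, HSP104, HSP12, CTT1, TPS2, MSN2, list genes called between strains, the 2 largest called changes per list, direction and strain between media, the 5 nearest patterns and the 2 neighbours on each side. Genes named beyond it (SIS1, APJ1, HSP78, CNS1, ECM10, HSP42 and SSA4 in the paired fit, SPS1, and those in the closing section) were chosen after their values were seen. Symbols are the S. cerevisiae ortholog names of the study's tables and were held for 2001 of the 4255 genes.

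Same-numbered cultures of the strains deviated together (r over genes 0.629, 0.712, 0.366 and 0.413 in YPD, and 0.208, 0.701, 0.689 and 0.285 in YPGly), so replicate numbers were taken to pair strains within a medium, although in YPGly sef1Δ replicates 1 and 4 correlated best with WT replicate 3. They were not taken to pair media (0.37, 0.257, 0.000475 and 0.28 in WT, and 0.0868, 0.401, 0.312 and 0.215 in sef1Δ). Even so, the best match between media was the same number for replicates 1, 2 and 4 in WT and 2, 3 and 4 in sef1Δ. The fits reported, with their SEs, do not use the pairing of strains unless a value is said to come from paired cultures. Alternatives were quantile, spike-in and normexp processing, the deposited log2 table, the other probe or both, no filter, a fit of all arrays, slide and replicate blocks, array weights, the methods' t-test and leaving out each replicate. Leaving out replicate 2 (in YPD, or in any group) and pairing within each medium were added after seeing the data. The number of arrays limits the precision.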

Additional observations from a re-analysis of the deposited data

Results flagged for a closer look

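In 76 groups of 4 arrays, for both probes of the 3 genes, 6 stress genes, the medians of the lists and the ribosomal protein share, the highest or lowest array was set against the rest with Dixon's test, which chance passes in about 1 in 20 groups, and 3 passed. The second probe of SPG4 read 1.57 on replicate 2 of sef1Δ in YPGly, with the other arrays of that group at 2.84 to 3.06. HSP12 read 5.52 on replicate 1 of WT in YPGly, with the others at 5.75 to 5.79. HSP42 read 2.82 on replicate 2 of WT in YPD, with the others at 0.45 to 0.74. HSP26 did not pass in any group of either medium. In YPD its arrays other than replicate 2 were themselves far apart. The strain effect on YKU80, beside SPG4, differed between media by 1.35 (SE 0.24, adjusted p 0.013, limma), at -0.46 (SE 0.18) in YPD and 0.89 (SE 0.17) in YPGly.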

How the results depend on the processing

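The HSP26 difference between strains in YPGly was 2.65 within slide 1 and 4.51 within slide 2, and 3.28 to 4.02 with 1 replicate left out. Stress genes called there numbered 2 in the fit reported, 0 with spike-in scaling or the other probe, 1 with the mean of both probes, 5 with the replicate block, 15 with array weights, 10 by the methods' t-test, and 0 to 5 with 1 replicate left out. Of all genes 1.22% were called in the fit reported, 5.26% with the replicate block, 9.52% with array weights and 5.69% by the methods' t-test. For the difference of the sef1Δ effect they numbered 0, then 1 with the replicate block, 4 with array weights, 4 with the replicate block within each medium, and 0 to 1 with 1 replicate left out, beside 0.658%, 1.34%, 3.97% and 2.54% of all genes for the first 4 of these.

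Between media in WT, SPS100 changed by 8.12 with spike-in scaling and 6.85 with normexp background, and SPG4 by 9.24 with quantile and 9.23 with spike-in scaling, 6.90 with normexp, 7.89 within slide 1 and 9.24 within slide 2. In sef1Δ, SPS100 changed by 7.15 with quantile scaling and 6.40 with normexp, and SPG4 by 6.52 with normexp. The SPG4 difference of the sef1Δ effect was -1.45 with quantile scaling. The cause was not tested. HSP26 between media ranged over 0.26 to 3.39 in WT and 3.64 to 6.67 in sef1Δ with 1 replicate left out, the highest value without YPD replicate 2 in each case, and in YPD between strains over -1.65 to 2.17. The replicate block changed no call of the 3 genes between strains or media. Between media, where numbers were not taken to pair cultures, the replicate block gave 771 higher and 1085 lower genes in WT and 808 and 1047 in sef1Δ. Normexp gave the smallest medium changes of SPS100 and SPG4, but its added offset of 50 shrinks changes from dim signals by itself. These values therefore do not measure a limit set by the background. The chosen SPS100 probe was well above background on every YPD array.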

Other observations

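Apart from heat shock genes, the genes with the widest spread between YPD cultures included MRH1, a membrane protein related to Hsp30. Its level in YPD was 0.18, 3.64, 1.00 and -2.55 in WT and -0.37, 3.14, 0.38 and -1.05 in sef1Δ on replicates 1 to 4, with replicate 2 highest in both strains. MRH1 spread wider still in YPGly, with SDs of 4.06 in WT and 2.25 in sef1Δ, against 2.55 and 1.84 in YPD. Single genes are named here after their values were seen. The acid phosphatase gene PHO11 read -4.78, -1.72, -5.44 and -4.29 in WT and -5.05, -1.39, -5.63 and -4.78 in sef1Δ, and the phosphate transporter gene PHO84 read 1.48, 2.45, -0.54 and 0.43 in WT and 1.68, 2.49, -1.78 and 1.21 in sef1Δ. The glucose sensor gene RGT2 read -2.54, -1.86, -3.82 and -4.39 in WT, where replicate 2 was highest as for these genes. In sef1Δ RGT2 differed from these, with its highest YPD level of 1.61 on replicate 4, where the other 3 arrays of that group read -3.51 to -1.98.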
